A study of Homo sapiens with 18 samples.

Results

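Immune checkpoint ligands are the surface or secreted molecules by which a tissue cell dampens the immune cells that touch it. The genes followed here were CD274, CD276, LGALS9, PVR, CD47 and IDO1, a list of named genes. The deposited table holds 16472 genes, and 5 of the 6 named genes were matched in it. IDO1, which encodes the enzyme that starts tryptophan breakdown along the kynurenine route, is not analysed here. RNA was sequenced from NIKS, an established human keratinocyte line that is immortalized but otherwise normal and is kept on irradiated mouse J2/3T3 fibroblasts as feeders. The 6 groups were SP100 wild type (WT) or SP100 knockout (KO) cells, each either left without interferon (0 h) or exposed to human interferon alpha 2a (25 ng/mL) during 12 or 48 h, with 3 libraries, labelled biological replicates, in every group. The headers name 1 cell line for each genotype, Vec2 for WT and KO5 for KO, so the knockout cannot be told apart from other ways in which these 2 lines differ. Untreated cells were sampled only at 0 h, so the effect of interferon cannot be told apart from that of longer culture.

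CD274 (PD-L1) binds PD-1 on T cells and lowers their activation. CD276 (B7-H3) is a B7 family relative reported to act mainly as an inhibitor of T cells. LGALS9 (galectin-9) is a sugar-binding lectin that engages HAVCR2 on T cells, PVR (CD155) is the ligand that the inhibitory receptor TIGIT and the activating receptor CD226 share, and CD47 is the signal that stops phagocytes through SIRPA. Type I interferon acts through the kinases JAK1 and TYK2, and a complex that contains STAT2 and IRF9 then binds an interferon-stimulated response element (ISRE) in target promoters. The gamma-activated site (GAS) is the other promoter element of interferon signalling. SP100 is an interferon-inducible protein of PML nuclear bodies that restricts DNA viruses such as papillomaviruses in keratinocytes.

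Values are RPKM, that is read counts divided by gene length and by the size of the library, and errors are SD with n = 3. Changes are differences of log2(RPKM + 1), a scale that shrinks those of low genes, and come from limma fitted to all 18 libraries and 13280 genes. A gene is said to rise or fall where its Benjamini-Hochberg adjusted p, taken over all genes tested in that comparison, is under 0.05. No absolute read depth is given in the table. Relative depth recovered from low values ran from 0.849 to 1.26 of the mean, a 1.49-fold range. Across genes, libraries of a group correlated at 0.985 to 0.989. SP100 itself measured 30.0 ± 2.01 RPKM in untreated WT cells and 15.1 ± 0.878 in untreated KO cells, and KO cells held 50.5%, 55.9% and 46.9% of the WT level at 0, 12 and 48 h. The KO libraries were below the WT libraries at every time, but SP100 RNA was still present, and protein was not measured.

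The keratinocyte identity of the cells was visible in all libraries. All 12 keratinocyte markers were measured, with KRT5 between 6494 and 8585 RPKM, KRT14 between 5587 and 6840 and TP63 between 78.6 and 92.7. Of 12 leukocyte markers 3 were matched, and their summed level ran from 1.57 to 7.01 RPKM, mostly CD14. The only matched marker of the 11 for Langerhans and dendritic cells was LAMP3. In WT cells it ran from 0.72 to 0.84 RPKM untreated, 47.5 to 50.4 at 12 h and 16.6 to 20.6 at 48 h. In KO cells it ran from 0.59 to 0.86, 44.5 to 45.6 and 16.8 to 17.5. No untreated library reached 1 RPKM, so LAMP3 passed the filter on low values only through treated libraries. No endothelial marker of 5 was matched. The 4 matched fibroblast markers of 10 summed to 194 to 397 RPKM, mostly VIM, and 2 of 6 melanocyte markers to 0.98 to 2.34. VIM was lower in KO than in WT cells at each time and lower with interferon, with means of 383.9, 313.9 and 285.1 RPKM at 0, 12 and 48 h in WT cells and 255.5, 227.5 and 192.3 in KO cells, whereas FAP at 0 h was 5.74 in WT and 5.98 in KO cells and COL1A1 at 12 h 1.95 and 2.60. CD14 was also lower with interferon, with means of 5.09, 2.40 and 2.81 RPKM in WT and 5.21, 1.43 and 2.53 in KO cells. The part of VIM, CD14 and LAMP3 in the results below was not tested, nor was which cells held them. In RNA from whole cultures, fewer cells of a type and less RNA per cell cannot be told apart.

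Promoter sequence is shown first for the genes that responded most and for CD274, because the ISRE is the element through which type I interferon acts. The windows are RefSeq's for GRCh38.p14, from 250 bases before to 50 bases after each start. They were searched on both strands for the ISRE core GAAANNGAAA, read TTTCNNTTTC on the other strand, and for the GAS letters TTCNNNGAA. The ISRE core occurred in 1255 of 35116 such windows (3.57%) and the GAS letters in 2689 (7.66%). The CD274 window held 2 overlapping ISRE cores and 1 GAS match, the LGALS9 window held 1 ISRE core and no GAS match, and the windows of CD47, PVR and CD276 held neither. The CD274 cores lie at -208 to -193 from the start, outside GENCODE exons of the gene. The LGALS9 core lies at -9 to 0, at the start itself, and overlaps a GENCODE exon. The capitals mark the ISRE cores, and the CD47 stretch is shown as a responding gene whose window has none. The stretches lie at chr9:5450292-5450502 on the plus strand for CD274, chr17:27631169-27631198 on the plus strand for LGALS9 and chr3:108091032-108091281 on the minus strand for CD47. A match describes these letters and not a bound site, and no match says nothing about other positions.
CD274: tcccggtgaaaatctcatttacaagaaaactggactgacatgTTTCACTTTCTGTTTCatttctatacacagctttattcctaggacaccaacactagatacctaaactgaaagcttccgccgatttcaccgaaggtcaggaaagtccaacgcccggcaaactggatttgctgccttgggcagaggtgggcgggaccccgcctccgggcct
LGALS9: gttgctttggTTTCTATTTCtttgttaagt
CD47: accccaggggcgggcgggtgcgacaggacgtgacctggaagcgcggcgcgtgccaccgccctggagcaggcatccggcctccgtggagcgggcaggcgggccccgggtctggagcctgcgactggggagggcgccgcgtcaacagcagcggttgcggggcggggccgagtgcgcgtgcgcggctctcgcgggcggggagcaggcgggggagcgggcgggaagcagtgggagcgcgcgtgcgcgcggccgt

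Untreated keratinocytes of both genotypes ranked the ligands in the same order, CD276, CD47, PVR, CD274 and LGALS9, and no neighbours in that order had overlapping libraries in either genotype. RPKM is scaled to gene length, so these levels can be set side by side. In untreated WT cells CD276 averaged 51.3 ± 0.962 RPKM, CD47 37.4 ± 3.46, PVR 23.9 ± 1.16, CD274 2.06 ± 0.567 and LGALS9 0.14 ± 0.0608. At 12 h of interferon the order had changed. LGALS9 and CD47 stood at the top in WT cells with overlapping libraries, at 60.3 ± 2.43 and 63.5 ± 3.48 RPKM. In KO cells LGALS9 was clear of CD47 at the top, at 80.5 ± 5.27 against 68.9 ± 5.64 RPKM. By 48 h CD276 and CD47 again led in both genotypes, followed by LGALS9 and PVR, whose libraries overlapped in WT but not in KO cells. CD274 was the lowest of the 5 at both interferon times.

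Against untreated cells of their own genotype, 4 of the 5 ligands rose at 12 h in WT cells (LGALS9, CD47, CD274 and PVR) and 3 rose in KO cells (LGALS9, CD47 and CD274). None fell. Of all 13280 genes tested, 44.9% passed in WT cells (15.1% higher and 29.8% lower) and 48.8% in KO cells (16.0% higher and 32.8% lower). The median change of the 5 was 0.49 in WT and 0.62 in KO cells, where all genes had medians of -0.09 in both. LGALS9 passed the filter on low values only through the interferon-treated libraries, so it had to differ from untreated cells. The medians of the 5 include it, so they are not read against those of all genes. Of the other 4 ligands, 3 rose in WT and 2 in KO cells. The libraries of the 2 times did not overlap for 3 of the 5 ligands in WT cells and 4 of the 5 in KO cells, LGALS9 among them in each. Of all genes, 53.7% and 55.2% did not overlap.

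**Figure D1:**
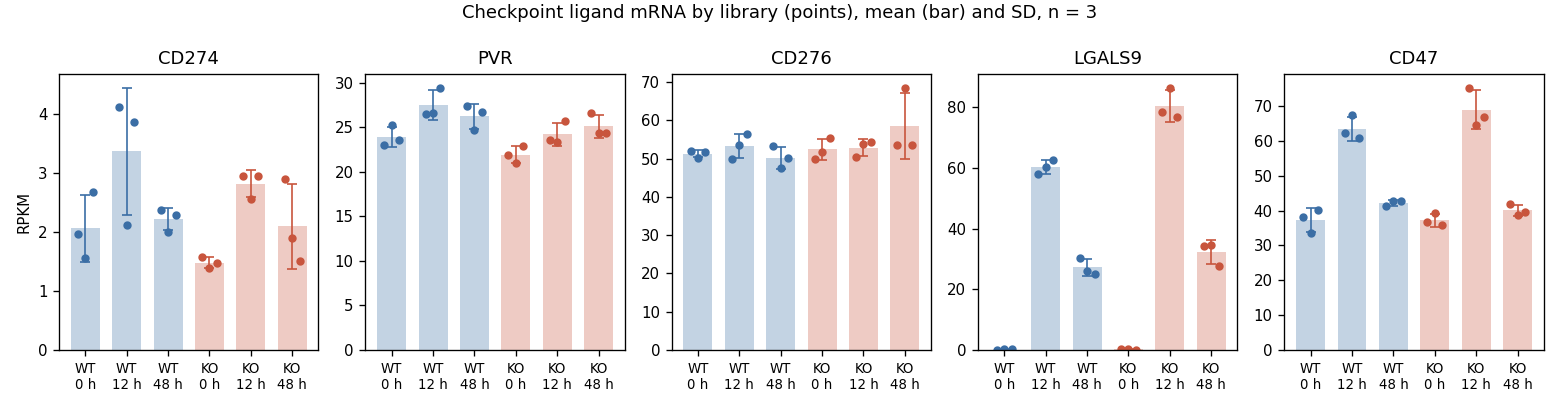
RPKM of each ligand in the 18 libraries. Points are libraries, bars are means and error bars SD (n = 3), with WT in blue and KO in red at 0, 12 and 48 h. LGALS9 rises from under 0.3 RPKM to a 12 h maximum, CD47 has a smaller 12 h maximum, and CD276 stays near 50 RPKM except in 1 KO library at 48 h (68.57).

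LGALS9 (ENSG00000168961, chromosome 17) was barely present without interferon. The 3 untreated WT libraries held 0.07, 0.18 and 0.17 RPKM, and the 3 untreated KO libraries 0.25, 0.16 and 0.13. At 12 h its RPKM was 57.88, 60.27 and 62.73 in WT libraries, and 78.35, 86.51 and 76.65 in those of KO cells. At 48 h they held 30.37, 26.09 and 25.07 RPKM in WT and 34.40, 34.46 and 27.55 in KO cells. Every treated library was far above every untreated one, and every 48 h library lay below every 12 h library of its genotype. The log2 change at 12 h was 5.75 in WT and 6.11 in KO cells (SE 0.0884), and at 48 h it was 4.62 and 4.81. No p is given for these changes, since no untreated library reached the 1 RPKM of the filter and LGALS9 was tested only because of the treated ones. Between 12 and 48 h LGALS9 fell by 1.13 in WT and by 1.30 in KO cells on the log2 scale (limma adjusted p = 1.66e-07 and 2.25e-08), to 45.1% and 39.9% of the 12 h mean. Since the untreated level is far under the pseudocount of 1, the size of the rise depends on it: with a pseudocount of 0.1 the 12 h changes were 8.01 and 8.19.

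LGALS9 has near copies. Over the longest coding transcripts of GENCODE 29, LGALS9B was 96.2% identical to it along 1709 aligned bases and LGALS9C 95.9% along 1727, so reads may have been split among them. Neither copy was called higher against untreated cells. LGALS9C averaged 2.85 ± 0.335 RPKM in untreated WT cells, 1.03 ± 0.231 at 12 h and 1.63 ± 0.050 at 48 h. Its 12 h changes were -0.92 in WT and -0.78 in KO cells on the log2 scale, given as a description because it reached 1 RPKM in 1 library of each 12 h group and passed the filter through the others. LGALS9B averaged 1.54 ± 0.653 RPKM in untreated WT cells and 0.647 ± 0.369 at 12 h.

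CD47 (ENSG00000196776, chromosome 3) started from a substantial level, rose at 12 h and fell again by 48 h. Untreated WT libraries held 38.27, 33.55 and 40.28 RPKM and untreated KO libraries 36.66, 39.32 and 35.77. At 12 h the values were 62.21, 67.43 and 60.83 in WT cells and 75.29, 64.57 and 66.92 in KO cells. At 48 h they were 41.19, 42.78 and 42.73 in WT cells and 41.79, 38.82 and 39.52 in KO cells. All 12 h libraries stood above all others, and the 48 h libraries were clear of the untreated ones in WT but overlapped them in KO cells. The means were 1.70 times the untreated mean in WT and 1.85 times in KO cells at 12 h, with log2 changes of 0.75 and 0.87 (SE 0.0674; limma adjusted p = 2.88e-07 and 4.56e-08). At 48 h the changes against untreated cells, 0.18 and 0.10, did not pass (adjusted p = 0.101 and 0.367), and CD47 fell between 12 and 48 h by 0.58 and 0.77 (adjusted p = 9.93e-06 and 3.84e-07).

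CD274 (ENSG00000120217, chromosome 9) stayed low in every library. Untreated WT libraries held 1.96, 1.55 and 2.67 RPKM, and untreated KO libraries 1.58, 1.38 and 1.48. At 12 h the values were 4.11, 2.12 and 3.85 in WT cells and 2.95, 2.55 and 2.94 in KO cells. At 48 h they were 2.37, 2.00 and 2.28 in WT cells and 2.89, 1.89 and 1.50 in KO cells. The 12 h libraries of KO cells lay above their untreated ones, whereas in WT cells replicate 2 at 12 h lay inside the untreated range. CD274 rose at 12 h by 0.62 in KO cells (SE 0.185; limma adjusted p = 0.0113) and by 0.49 in WT cells (adjusted p = 0.0398). The WT rise did not pass in a fit on those libraries alone (adjusted p = 0.118), nor without WT 0 h replicate 1 (0.0917) or 2 (0.158) or WT 12 h replicate 1 (0.164) or 3 (0.140). At 48 h the changes were 0.09 and 0.29, which did not pass (adjusted p = 0.817 and 0.336). The drops of 0.41 and 0.33 between 12 and 48 h did not pass either (adjusted p = 0.0979 and 0.175), though they did without WT 12 h replicate 2 (-0.63, adjusted p = 0.0102) or KO 48 h replicate 1 (-0.50, adjusted p = 0.0464).

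PVR (ENSG00000073008, chromosome 19) moved little. Untreated libraries held 22.95, 25.19 and 23.52 RPKM in WT and 21.84, 21.00 and 22.88 in KO cells. At 12 h the values were 26.46, 26.63 and 29.45 in WT cells and 23.56, 23.35 and 25.69 in KO cells. At 48 h they were 27.32, 24.67 and 26.68 in WT cells and 26.60, 24.29 and 24.37 in KO cells. The 12 h libraries were above the untreated ones in both genotypes, by a ratio of means of 1.15 in WT and 1.11 in KO cells. PVR rose at 12 h in WT cells by 0.20 (SE 0.0597; limma adjusted p = 0.0142), and the KO change of 0.14 did not pass (adjusted p = 0.0690). At 48 h the change was 0.13 in WT cells (adjusted p = 0.175), and PVR rose by 0.19 in KO cells (adjusted p = 0.0494). The WT call was lost without WT 0 h replicate 1 (adjusted p = 0.0611) or WT 12 h replicate 3 (0.0772), and the KO 48 h call in 17 of 25 alternative fits. With median-of-ratios scaling the KO change at 12 h was 0.24 and passed (adjusted p = 0.00438).

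CD276 (ENSG00000103855, chromosome 15) was the highest of the 5 ligands without interferon and gave no call in any comparison. Untreated libraries held 51.96, 50.16 and 51.65 RPKM in WT and 49.97, 51.78 and 55.44 in KO cells. At 12 h the values were 49.97, 53.48 and 56.35 in WT cells and 50.32, 53.86 and 54.44 in KO cells. At 48 h they were 53.23, 47.44 and 50.08 in WT cells and 53.48, 68.57 and 53.49 in KO cells. Within a genotype the 3 times overlapped, while the KO 48 h libraries lay above all WT 48 h libraries, replicate 2 by a wide margin. The 12 h change was 0.05 in WT cells (95% interval -0.11 to 0.22; limma adjusted p = 0.619) and 0.01 in KO cells (adjusted p = 0.909).

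At 48 h fewer ligands stood apart from the untreated cells. LGALS9 alone rose in WT cells, where 12.8% of all genes passed (6.52% of all genes higher and 6.30% lower), and LGALS9 and PVR rose in KO cells, where 13.3% passed (5.90% higher and 7.42% lower). LGALS9 had to differ here too, so of the other 4 ligands 0 rose in WT cells in limma's fit and 1 in KO cells. The libraries did not overlap for 2 of the 5 ligands in each genotype, LGALS9 among them, against 32.6% and 29.1% of all genes. From 12 to 48 h LGALS9 and CD47 fell in both genotypes, where 35.9% of all genes passed in WT and 41.7% in KO cells, with 11.3% and 14.0% of all genes lower. No ligand rose between those times. Here too 2 of the 5 had libraries that did not overlap in each genotype, against 47.2% and 49.2% of all genes. The interferon comparisons of a genotype share libraries, so they are not separate evidence.

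KO cells were set against WT cells at each time. At 0 h none of the 5 ligands passed in limma's test at an adjusted or an unadjusted p of 0.05, where 4.89% of all genes passed. At 12 h LGALS9 was higher in KO cells, where 3.62% of all genes passed and 1.60% of all genes were higher. At 48 h none passed, where 4.19% of all genes did, although LGALS9 and CD276 had unadjusted p-values of 0.0189 and 0.0186. The KO and WT libraries did not overlap for 1, 2 and 1 of the 5 ligands at 0, 12 and 48 h, against 23.6%, 21.0% and 20.2% of all genes.

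The 3 KO libraries at 12 h all held more LGALS9 than the 3 WT libraries, with means of 80.5 ± 5.27 against 60.3 ± 2.43 RPKM, a ratio of 1.34. The log2 difference was 0.41 (95% interval 0.22 to 0.60; limma adjusted p = 0.0142). It did not pass with a pseudocount of 0.1 (0.42, adjusted p = 0.226), without WT 12 h replicate 1 (0.38, adjusted p = 0.0714) or without KO 12 h replicate 2 (0.36, adjusted p = 0.0684). The interaction, which asks whether the interferon change itself differs between genotypes, was 0.36 at 12 h (SE 0.125, unadjusted p = 0.0110, adjusted p = 0.708), so a larger induction in KO cells was not established. It uses untreated levels far under the pseudocount, and over 25 alternative fits it ran from 0.18 to 0.41 without passing. At 48 h the KO minus WT difference of 0.23 did not pass (adjusted p = 0.185), and it did without KO 48 h replicate 3 (0.34, adjusted p = 0.0402).

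CD47 differed between genotypes by 0.00, 0.12 and -0.08 on the log2 scale at 0, 12 and 48 h (KO minus WT; limma adjusted p at least 0.422). CD274 was lower in KO cells by point estimate, at -0.29, -0.16 and -0.08, with an SE of 0.185 (adjusted p at least 0.449). PVR was -0.12, -0.18 and -0.06, and the 12 h value, for which no KO library reached the lowest WT library, had an unadjusted p of 0.0090 and an adjusted p of 0.128. CD276 was 0.21 higher in KO cells at 48 h (adjusted p = 0.183), and 0.09 without KO replicate 2 (adjusted p = 0.538). None of the 5 passed an interaction test at 12 or 48 h in limma's fit, where 0.0753% and 0.0828% of all genes passed, and LGALS9 at 12 h was the only ligand with an unadjusted p under 0.05. A test that is not passed does not show that the genotypes behave alike, and the intervals for CD274 are wide.

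**Figure D2:**
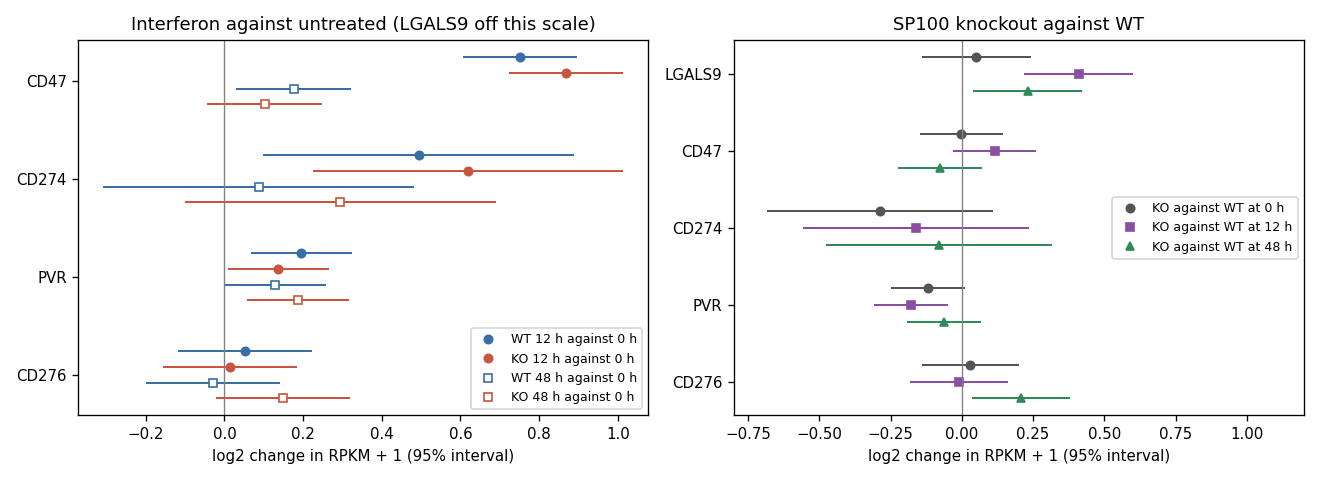
Log2 changes in RPKM + 1 with 95% intervals from limma. Left, interferon against untreated cells for 4 ligands, filled markers at 12 h and open markers at 48 h, WT in blue and KO in red; LGALS9 (4.62 to 6.11) is off this scale. Right, KO minus WT at 0, 12 and 48 h for all 5 ligands. The intervals of CD47 at 12 h stand clear of 0, those of CD276 against untreated cells include it, and the LGALS9 difference between genotypes at 12 h is 0.41.

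The profiles of the ligands were then compared with each other. Over the 18 libraries, which share the 6 group means, log2 levels correlated at 0.75 between LGALS9 and CD47, 0.71 between CD274 and CD47, and 0.63 for each of CD274 with LGALS9, CD274 with PVR and LGALS9 with PVR. PVR with CD47 gave 0.36, and CD276 lay between -0.03 and 0.20 with each of the other members. The 3 tested genes whose pattern was most like LGALS9 were IFI35, USP18 and TRIM14, each at r = 0.997. IFI35 and USP18 are interferon-stimulated genes, and USP18 removes ISG15 from proteins and restrains the interferon receptor. For CD47 they were SERPINB5 (0.983), BAG1 (0.982) and NBN (0.980), where SERPINB5 is the epithelial serpin maspin, BAG1 a co-chaperone and NBN a DNA break repair protein. For CD274 the nearest reached only 0.864 (PRELID1P5), 0.860 (SZRD1) and 0.859 (TTC38), for PVR 0.860 (MUL1), 0.858 (PLOD1) and 0.827 (SRCAP), and for CD276 0.852 (TIMM50), 0.762 (DHX57) and 0.727 (WDR24). These are the highest of 13280 correlations for each ligand and carry no test.

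Other ligands were followed as a list of 24 genes named inhibitory, of which 17 were measured and 16 tested. Not all are only inhibitory, since the list holds CD86 and the butyrophilins BTN3A1, BTN3A2 and BTN3A3. These butyrophilins are among the risers at 12 and 48 h in each genotype. At 12 h 9 rose and 2 fell in WT cells, and 8 rose and 3 fell in KO cells, with list medians of 0.31 and 0.30 (all genes at 12 h: 15.1% higher and 29.8% lower in WT, 16.0% and 32.8% in KO). These counts include PDCD1LG2 and, in KO cells, CD86, which passed the filter only through groups where they were high. At 48 h 7 rose and 1 fell in each genotype, with medians of 0.16 and 0.14 where all genes had medians of 0.00 and -0.01, and 6.52% and 5.90% of all genes were higher. PDCD1LG2 is among the 7 in each genotype, with the same limit. CEACAM1, an adhesion molecule with inhibitory motifs that binds itself and HAVCR2, changed most at 12 h. It went from 2.80 ± 0.095 RPKM in untreated WT cells to 16.5 ± 1.13 at 12 h and 4.57 ± 0.153 at 48 h, and in KO cells from 1.99 ± 0.732 to 13.0 ± 0.686 and 3.17 ± 0.956. Its 12 h changes were 2.20 and 2.26 (SE 0.152; limma adjusted p = 1.29e-08 and 8.44e-09). NT5E (CD73), the surface enzyme that makes adenosine from AMP, went from 55.0 ± 1.61 to 130.8 ± 5.39 and 95.7 ± 3.61 RPKM in WT cells and from 53.6 ± 1.54 to 132.4 ± 5.85 and 90.9 ± 1.38 in KO cells.

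HLA-E, the ligand of the NKG2A receptor, went from 57.1 ± 1.26 RPKM in untreated WT cells to 124.0 ± 2.18 and 99.5 ± 5.90, and rose at both times in both genotypes. BTN3A3 and BTN3A1 are butyrophilins, which take part in gamma delta T cell recognition. BTN3A3 averaged 1.36 ± 0.536, 3.04 ± 0.745 and 4.62 ± 0.280 RPKM at 0, 12 and 48 h in WT cells, with a 48 h change of 1.28 in WT and 1.16 in KO cells (limma adjusted p = 7.41e-05 and 0.000194). BTN3A1 went from 4.03 ± 0.221 to 7.12 ± 1.32 and 8.74 ± 0.817 RPKM in WT cells. BTN3A genes are close paralogs, so their values are uncertain where reads were shared. Of the ligands that fell, LGALS1 dropped by 0.34 in WT and by 0.40 in KO cells at 12 h and by 0.45 in each at 48 h, from 1475 ± 18.0 RPKM in untreated WT cells. LGALS3 fell at 12 h by 0.29 and 0.30. The calls named here against untreated cells kept their direction and passed under median-of-ratios scaling. In KO against WT none of the 16 passed at 0 or 48 h in limma's fit, where 4.89% and 4.19% of all genes did. At each of these times 4 of the 16 had an unadjusted p under 0.05. With median-of-ratios scaling LGALS1 was called lower in KO cells at 12 h.

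**Figure D3:**
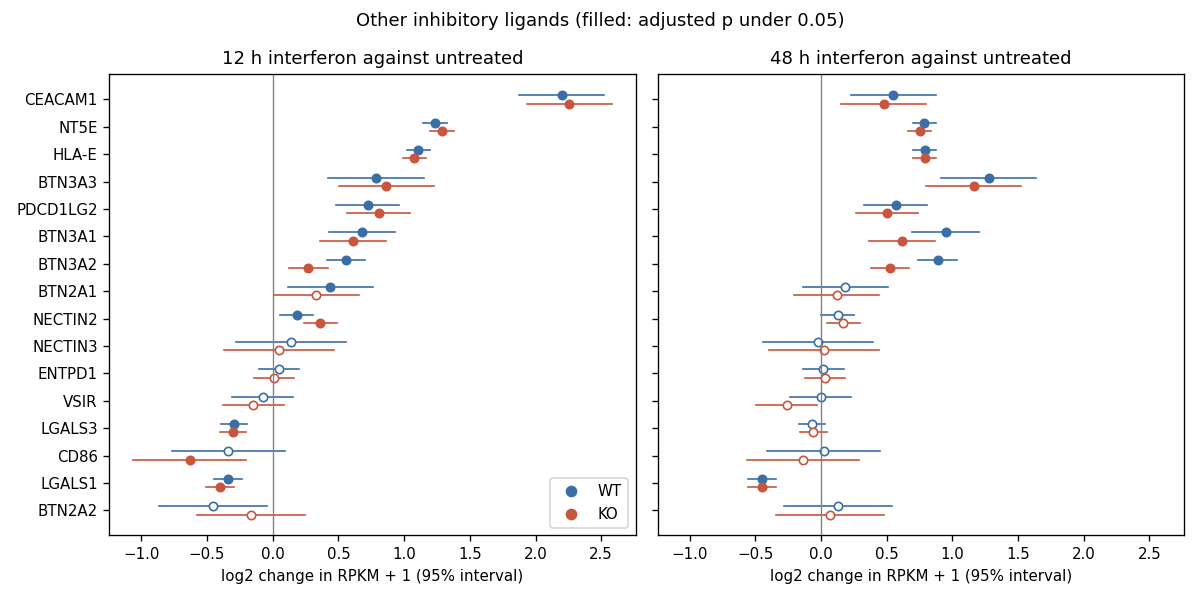
Log2 changes in RPKM + 1 with 95% intervals for the 16 tested genes of the list named inhibitory, which also holds CD86 and butyrophilins. Changes are at 12 h (left) and 48 h (right) against untreated cells, WT in blue and KO in red. Filled markers passed an adjusted p of 0.05. CEACAM1 leads at 12 h (2.20 and 2.26) and BTN3A3 at 48 h (1.28 and 1.16), while LGALS1 is lower at both times. PDCD1LG2 and, in KO cells at 12 h, CD86 passed the filter only through groups where they were high.

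Within the B7 family around CD274 and CD276, 5 of 8 listed relatives were tested. PDCD1LG2 (PD-L2), the other PD-1 ligand, went from 0.580 ± 0.130 RPKM in untreated WT cells to 1.60 ± 0.067 at 12 h and 1.34 ± 0.166 at 48 h, and in KO cells from 0.567 ± 0.097 to 1.74 ± 0.130 and 1.23 ± 0.249. The 12 h changes were 0.72 and 0.81 (SE 0.113). No untreated library reached 1 RPKM, so PDCD1LG2 passed the filter only through treated libraries and its change is given with no p. Its level stayed under that of CD274 in each group mean. NCR3LG1, a ligand of the activating receptor NKp30, fell at 12 h by 0.26 in WT cells, a call not made with median-of-ratios scaling. In KO against WT none of the 5 passed in limma's fit, where 4.89%, 3.62% and 4.19% of all genes did at 0, 12 and 48 h. Unadjusted p-values under 0.05 were seen for 0, 1 and 2 of them at these times.

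Among 10 nectins and related molecules around PVR, 5 were tested and 2 rose at 12 h in each genotype, NECTIN1 and NECTIN2, while CADM4 fell. Of all genes at 12 h, 15.1% were higher and 29.8% lower in WT cells, and 16.0% and 32.8% in KO cells. NECTIN1, an adherens junction protein, went from 64.2 ± 1.21 to 97.8 ± 4.22 RPKM in WT cells, a change of 0.60 in WT and 0.61 in KO cells (limma adjusted p = 5.23e-06 and 3.59e-06). None of the 5 passed at 48 h in limma's fit, where 12.8% of all genes did in WT and 13.3% in KO cells. In each genotype 2 of the 5 had an unadjusted p under 0.05. CADM4, a cell adhesion molecule, was higher in KO than in WT cells at each time, by 0.65, 0.67 and 0.69 (adjusted p = 0.00237, 0.00252 and 0.00145).

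Around LGALS9, 9 of 11 listed galectins and relatives were tested. At 12 h 1 rose and 6 fell in WT cells, and 2 rose and 5 fell in KO cells, with medians of -0.42 and -0.30 (all genes at 12 h: 15.1% higher and 29.8% lower in WT, 16.0% and 32.8% in KO). The galectin-3 binding protein LGALS3BP was the strongest riser, from 119.6 ± 4.18 to 314.0 ± 24.2 and 366.9 ± 11.4 RPKM in WT cells and with 12 h changes of 1.38 and 1.37 (limma adjusted p = 3.64e-11 and 3.84e-11). From 12 to 48 h it rose by a further 0.23 and 0.24 (adjusted p = 0.00978 and 0.00646), calls that were not made with median-of-ratios scaling. LGALSL fell at 12 h in WT cells by 0.46 and LGALS7B in KO cells by 0.69. The fallers include LGALS9C, with the limit given above. LGALS7, an epithelial galectin, was lower in KO than in WT cells at 0 and 12 h (-0.62 and -0.59; adjusted p = 0.0164 and 0.0258), and LGALS7B is a near-identical copy of it, so how reads were split between them is uncertain.

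Of 16 costimulatory and NKG2D ligands, 11 were tested. At 12 h 2 rose and none fell in WT cells, while 1 rose and 3 fell in KO cells. At 48 h 2 rose and 1 fell in WT cells, where 6.52% of all genes were higher and 6.30% lower. That faller, ULBP2, was not called with median-of-ratios scaling. None passed at 48 h in KO cells in limma's fit, where 13.3% of all genes did. In KO cells at 48 h 2 of the 11 had an unadjusted p under 0.05. At 12 h 15.1% of all genes were higher and 29.8% lower in WT cells, and 16.0% and 32.8% in KO cells. RAET1L, an NKG2D ligand, rose at 12 h by 1.00 in WT and 0.76 in KO cells from 1.25 ± 0.682 and 1.68 ± 0.133 RPKM. CD70, the ligand of CD27, averaged 1.34 ± 0.326 RPKM in untreated KO cells and 0.283 ± 0.110 at 12 h, against 1.51 ± 0.359 and 1.18 ± 0.215 in WT cells. No KO library at 12 h reached 1 RPKM, so CD70 passed the filter through the other groups and its differences at 12 h are given with no p. The 3 fallers of KO cells at 12 h include CD70, with that limit. At 48 h CD70 was lower in KO than in WT cells (-0.66, limma adjusted p = 0.0232), and CD40 and RAET1G were higher in untreated KO cells (0.49 and 0.39). With median-of-ratios scaling 4 rose and 0 fell in WT cells at 12 h, where 21.8% of all genes were higher and 20.5% lower. In KO cells 2 rose and 1 fell under that scaling, where 23.7% and 22.9% of all genes did. That 1 faller is CD70, with the limit given above.

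IDO1 acts within tryptophan metabolism, and 10 of 18 other genes of that pathway and of the aryl hydrocarbon receptor response were measured and tested. At 12 h 1 rose in each genotype, 5 fell in WT and 6 fell in KO cells (all genes at 12 h: 15.1% higher and 29.8% lower in WT, 16.0% and 32.8% in KO). With median-of-ratios scaling 3 and 4 of the 10 fell, where 20.5% and 22.9% of all genes did. The riser was WARS1, the tryptophan tRNA synthetase, at 118.2 ± 0.670, 253.5 ± 6.99 and 146.6 ± 6.87 RPKM at 0, 12 and 48 h in WT cells and 130.1 ± 1.21, 230.4 ± 9.63 and 153.6 ± 4.09 in KO cells. KYAT1, a kynurenine aminotransferase, fell at 12 h by 1.05 in WT and by 1.13 in KO cells, from 9.38 ± 1.32 to 4.00 ± 0.614 RPKM in WT cells, and was back at 9.32 ± 0.737 at 48 h. SLC7A11, the cystine importer, fell at 12 h by 0.67 in WT and by 0.97 in KO cells and rose at 48 h by 0.66 and 0.56. It was higher in KO than in WT cells at 0 and 48 h (0.47 and 0.37; limma adjusted p = 0.000501 and 0.00387).

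Genes for the handling or binding of CD274 and CD47 formed a list of 16, of which 15 were tested. THBS1 and SIRPA are on it as binding partners of CD47. At 12 h 1 rose and 7 fell in WT cells and 1 rose and 8 fell in KO cells (all genes at 12 h: 15.1% higher and 29.8% lower in WT, 16.0% and 32.8% in KO). With median-of-ratios scaling 2 rose and 5 fell in KO cells, where 23.7% of all genes were higher and 22.9% lower. In WT cells that scaling gave 1 and 7, where 21.8% and 20.5% of all genes were called. THBS1, the matrix protein thrombospondin-1 that binds CD47, rose from 128.2 ± 7.68 to 250.5 ± 3.62 and 273.3 ± 22.9 RPKM in WT cells, with 12 h changes of 0.96 in WT and 1.23 in KO cells (limma adjusted p = 8.90e-10 and 2.94e-11). QPCTL, the enzyme that modifies CD47 so that SIRPA can bind it, fell at 12 h by 0.61 and 0.58, from 6.46 ± 0.200 to 3.93 ± 0.699 RPKM in WT cells. CMTM6, which keeps CD274 on the cell surface, was at 43.1 ± 0.995, 43.8 ± 2.10 and 39.0 ± 2.41 RPKM in WT cells, and it fell from 12 to 48 h in both genotypes. Its relative CMTM4 fell at 12 h by 0.41 in WT and by 0.57 in KO cells (adjusted p = 0.000167 and 5.53e-06). None of the 15 passed between genotypes in limma's fit, where 4.89%, 3.62% and 4.19% of all genes did at 0, 12 and 48 h. Unadjusted p-values under 0.05 were seen for 6, 5 and 1 of them at these times. With median-of-ratios scaling STUB1, a ubiquitin ligase, was called lower in KO cells at 0 h (-0.22) and at 12 h (-0.20).

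Receptors for the 5 ligands are known mainly from immune cells, and 2 of 9 listed were measured. SIRPA, the partner of CD47, was the only 1 tested. It stood at 16.6 ± 0.099 RPKM in untreated WT cells, so it was present in these keratinocyte cultures, and which cells held it was not tested. At 48 h SIRPA fell by 0.27 in WT and by 0.26 in KO cells (limma adjusted p = 0.0108 and 0.0123). Of all genes, 6.30% and 7.42% were lower there.

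Of 16 genes of the JAK, STAT and IRF1 axis, which carries interferon signals to the nucleus, 15 were tested. At 12 h 6 rose and 1 fell in WT cells, 7 rose and 2 fell in KO cells (all genes at 12 h: 15.1% higher and 29.8% lower in WT, 16.0% and 32.8% in KO). At 48 h 5 rose and 0 fell in each genotype in limma's fit, where 6.52% and 5.90% of all genes were higher. IRF9, the DNA-binding subunit of the ISRE complex, went from 6.12 ± 0.271 to 72.1 ± 1.10 and 72.6 ± 4.38 RPKM in WT cells. From 12 to 48 h its change in WT cells was 0.01 (limma adjusted p = 0.971). IRF1, a transcription factor known to drive CD274 transcription, stood at 9.73 ± 0.561, 24.6 ± 0.879 and 15.2 ± 0.725 RPKM in WT and 8.19 ± 0.757, 22.4 ± 0.741 and 13.0 ± 0.925 in KO cells, falling from 12 to 48 h by 0.66 and 0.74 (limma adjusted p = 2.28e-06 and 4.90e-07). IFNGR2, a subunit of the interferon gamma receptor, was the gene that fell in WT cells at 12 h, by 0.51, and it fell by 0.41 in KO cells. Between genotypes IRF9 was lower in untreated KO cells (-0.53, limma adjusted p = 0.0109). None of the 78 genes tested over all these lists passed an interaction test in limma's fit. Of all genes, 0.0753% passed at 12 h and 0.0828% at 48 h, so this count does not set the lists apart. An unadjusted p under 0.05 was seen for 12 of the 78 at 12 h and 10 at 48 h. The share of all genes at that unadjusted threshold is not given here, so these 2 counts are not read further.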

How the data were processed

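Per the labels' protocols, polyA RNA was made into stranded Illumina libraries. The submitters' processing notes name cutadapt, STAR 2.6.1, RSEM 1.3.0, limma 3.50.3 and the build hg19, with no roles; the annotation and the filter on genes are not given in the sources used here. The authors deposited RPKM values for 16472 Ensembl IDs, rounded to 2 decimals. Symbols were matched for 15651. Whole reads were not recovered, so no count model was used. Log2(RPKM + 1) was fitted in limma 3.58.1 (R 4.3.3) with 6 group means, a variance trend and Benjamini-Hochberg adjustment within each of 11 comparisons, for genes with at least 1 RPKM in at least 3 libraries. Relative depth came from 461 low genes, whose ratios between libraries agree within 3% with the fitted depths in 99.3% of 153 pairs. Chromosomes are from GENCODE 29 by gene ID. Replicates are labelled biological, with no culture named, so p-values measure the spread between these libraries. The members and lists were chosen with earlier results of these data known. From each list the 2 genes with the largest change in each direction of a comparison could be named, and for each ligand the 3 most correlated genes; 1 list gene is not reported here. Alternatives were a pseudocount of 0.1, no filter, median-of-ratios scaling, a mean RPKM of at least 5, the comparison's libraries alone, no trend, a replicate block, and each library left out.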

Additional observations from a re-analysis of the deposited data

How the results depend on the processing

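Of 55 pairs of a ligand and a comparison, 15 were called. Their 373 alternative values kept the call in 346 and lost it in 27, and none changed direction. The kept calls include LGALS9 at 12 and 48 h against 0 h in each genotype, all 25 alternatives of each. LGALS9 had to differ there, so these kept calls say nothing about stability, and the counts of ligands called against 0 h below include it. The 991 alternative values of the uncalled pairs gained a call in 4 and changed direction in 18. With a mean RPKM of at least 5, CD274 was not tested. The count of ligands called at 48 h against 0 h in KO cells was 1, not 2, with no filter, with the comparison's libraries alone and with no trend. The count called in KO against WT at 12 h was 0 with a pseudocount of 0.1. Leaving out 1 library gave 2 to 4 ligands called at 12 h in WT cells, 1 to 2 at 48 h in KO cells, and 0 to 1 in KO against WT at each of 12 and 48 h. The replicate numbers did not pair the libraries: 45 same-numbered pairs had correlations from -0.0972 to 0.157, 2 of them over 0.1, and 2 of 18 libraries correlated best with their own number. With the replicate block, 1 ligand was called at 48 h in KO cells (PVR adjusted p = 0.0542), and no other count changed. With median-of-ratios scaling, PVR at 48 h against 12 h in KO cells was -0.039, and the genes called at 12 h split into 2892 higher and 2717 lower in WT cells (main: 2005 and 3959) and 3153 and 3040 in KO cells (main: 2123 and 4362). Leaving out 1 library turned the sign of uncalled values: CD274 at 48 h against 0 h in WT cells, -0.037 to 0.23; CD274 in KO against WT at 48 h, -0.26 to 0.062; CD274 interaction at 12 h, -0.10 to 0.26; CD276 at 48 h against 0 h in WT cells, -0.071 to 0.010; CD276 at 12 h against 0 h in KO cells, -0.020 to 0.054; CD276 in KO against WT, -0.011 to 0.063 at 0 h and -0.054 to 0.031 at 12 h; CD276 interaction at 12 h, -0.084 to 0.0010; and CD47 in KO against WT at 0 h, -0.075 to 0.053. The causes of these changes were not tested.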
